A study of Homo sapiens with 16 samples.

Results

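Genes of fatty acid synthesis and desaturation, 10 in number, were followed through 8 lists of genomic regions from PC9 cells. The genes were ACACA, FASN, ACLY, SCD, SCD5, ELOVL1, ELOVL6, ACSS2, HACD3 and SREBF1, a set chosen by name, and a region belonged to a gene when the authors' table assigned it that gene name. These 10 genes held 39 of the 59617 regions in all 8 lists. PC9 cells, a line from human non-small cell lung cancer, grow on signals from mutant EGFR, and those used here were wild type, that is, not edited. They were given DMSO (vehicle) or osimertinib, an inhibitor of mutant EGFR, with no dose or time stated for this assay. The lists covered 3 histone marks, H3K4me3, H3K4me1 and H3K9me3, and the histone demethylase KDM1A (also LSD1). Each mark or protein had a single library per treatment, so no difference between treatments has a replicate check and none was tested. The title of the series ties PKM2 loss and fatty acid synthesis to the osimertinib response, which is the question behind a look at these genes.

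Fatty acids are built in the cytosol from acetyl-CoA, which ACLY makes from citrate and ACSS2 from acetate. ACACA turns acetyl-CoA into malonyl-CoA, and FASN joins these units into palmitate. ELOVL6 and ELOVL1 lengthen fatty acids in the endoplasmic reticulum, where HACD3 carries out the dehydration step of the same cycle, and the desaturases SCD and SCD5 add a double bond. SREBF1 codes for SREBP-1, a transcription factor that switches on many of these genes when lipids run low. H3K4me3 marks the starts of active genes, H3K4me1 marks enhancers and the flanks of promoters, and H3K9me3 marks silent chromatin.

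Every region was 2 kb wide, positions refer to GRCh38, and rank 1 was the region with the highest signal of its own list. Of the H3K4me3 regions, 17.5% with vehicle and 26.1% with osimertinib were entered as more than 1 window, though still 2 kb wide. How far the edges and shifts of regions depend on where a window was placed was not tested. How the signal was scaled was not stated, so signals and ranks are read within a list, and fewer cells with a mark cannot be told apart from less of it per cell. The vehicle list held 11621 regions for H3K4me3, 9761 for H3K4me1, 2749 for H3K9me3 and 4731 for KDM1A, and the osimertinib list 13285, 6515, 2073 and 8882 in the same order. Promoter regions, those the authors placed within 3 kb of a transcript start, made up 90.5% of the H3K4me3 list with vehicle and 73.5% with osimertinib. The lists thus differed in make-up as well as length. With equal numbers of the strongest regions, or of the strongest promoter regions, taken from both lists, the H3K4me3 counts of the 10 genes by list came out the same. The shares over all genes and the other counts were not recomputed in this way. For the cell type, 9 of 10 epithelial markers, among them EPCAM, CDH1, KRT8 and KRT18, carried an H3K4me3 promoter region under each of the treatments. Of 10 leukocyte markers, 4 had one in a single list and 0 in both, and of 10 fibroblast and endothelial markers 0 had one.

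The stretches upstream of the gene starts show the sequence beside which the H3K4me3 regions lay. They are the 250 bases before a start in RefSeq (GRCh38.p14), written from 5′ to 3′ along the gene's own strand. Of the 10 genes, 9 had 14 such starts. FASN had no entry in the promoter set used, so it was not searched for motifs. Of the 6 genes printed, ACSS2, ACACA, HACD3 and SCD had their H3K4me3 promoter region in 1 list only, ACLY went far down its list, and ELOVL6 stayed in place. Capitals mark 2 short motifs, each read on both strands. One is the GC box, GGGCGG. The other is the CCAAT box, named for its letters.
ACLY, chr17:41919023-41919272, - strand: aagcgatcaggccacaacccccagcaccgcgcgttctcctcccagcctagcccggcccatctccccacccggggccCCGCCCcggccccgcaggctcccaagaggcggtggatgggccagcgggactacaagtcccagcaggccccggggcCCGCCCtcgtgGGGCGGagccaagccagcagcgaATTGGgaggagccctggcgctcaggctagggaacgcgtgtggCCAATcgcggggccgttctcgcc
ACSS2, chr20:34876362-34876611, + strand: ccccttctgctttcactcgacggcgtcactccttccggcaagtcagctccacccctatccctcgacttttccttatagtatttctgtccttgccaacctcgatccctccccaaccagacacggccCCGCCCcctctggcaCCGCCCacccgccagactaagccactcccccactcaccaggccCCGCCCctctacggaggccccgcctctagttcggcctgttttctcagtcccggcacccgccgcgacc
ACACA, chr17:37359097-37359346, - strand: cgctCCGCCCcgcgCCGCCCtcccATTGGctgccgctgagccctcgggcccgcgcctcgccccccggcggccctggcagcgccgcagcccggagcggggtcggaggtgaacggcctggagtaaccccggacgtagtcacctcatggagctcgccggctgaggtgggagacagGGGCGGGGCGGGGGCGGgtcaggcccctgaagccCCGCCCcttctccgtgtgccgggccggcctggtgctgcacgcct
ELOVL6, chr4:110198616-110198865, - strand: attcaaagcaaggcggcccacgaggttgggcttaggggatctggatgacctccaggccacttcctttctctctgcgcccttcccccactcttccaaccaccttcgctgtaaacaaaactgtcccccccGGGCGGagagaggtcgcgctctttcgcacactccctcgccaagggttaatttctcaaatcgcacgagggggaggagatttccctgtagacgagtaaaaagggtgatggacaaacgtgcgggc
HACD3, chr15:65530213-65530462, + strand: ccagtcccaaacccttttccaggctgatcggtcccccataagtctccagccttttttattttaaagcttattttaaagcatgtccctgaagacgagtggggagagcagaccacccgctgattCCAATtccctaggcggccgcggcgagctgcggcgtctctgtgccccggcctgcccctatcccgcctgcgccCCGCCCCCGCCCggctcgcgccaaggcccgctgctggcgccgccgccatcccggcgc
SCD, chr10:100346983-100347232, + strand: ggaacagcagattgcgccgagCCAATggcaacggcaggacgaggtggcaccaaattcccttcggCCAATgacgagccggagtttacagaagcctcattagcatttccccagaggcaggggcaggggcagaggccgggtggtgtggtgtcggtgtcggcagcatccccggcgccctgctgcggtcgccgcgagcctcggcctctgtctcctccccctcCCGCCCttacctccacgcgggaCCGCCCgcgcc

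A GC box was found upstream of 13 of the 14 starts, against 42.6% of 35116 RefSeq promoters of the same length. A CCAAT box was found upstream of 9 of the 14, against 32% of them. By gene these were 9 of 9 and 7 of 9, a gene being counted if any of its starts had the motif. The shares over all promoters are by start, and none was taken by gene. The stretches of the 2 ACLY starts share 179 bases, so motifs in those bases are counted at both. The E-box CACGTG was found at 0 of the 14, against 6.34%, and CACCCCA, core letters of the sterol regulatory element that SREBF proteins bind, at 1, against 7.0%. That 1 match lay at an ACSS2 start that no H3K4me3 region covered. Only exact matches to these letters were counted, so variant forms of an element would be missed. The member stretches were richer in G and C than most, with a median of 69.6% against 58.0% over all promoters, and the part of this in the counts of motifs was not tested. Different motifs did not overlap apart from 2 shared bases at ELOVL1.

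All 10 genes had an H3K4me3 promoter region in at least 1 list. They were chosen with earlier results of these data known, so this count is not a result about them. Of 34 other genes of the pathway, 19 had such a region. ACACA, ACSS2, SCD and SCD5 had one with vehicle only, HACD3 with osimertinib only, and ACLY, ELOVL1, ELOVL6, FASN and SREBF1 in both. The share with vehicle only was thus 40.0%, beside 27.4% of the 9819 genes that had a promoter region in either list. The share with osimertinib only was 10%, beside 17.5%, and the share in both was 50%, beside 55.0%. Each gene makes up 10 points of these shares, so none of the 3 differed from its background by much more than 1 gene.

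**Figure D1:**
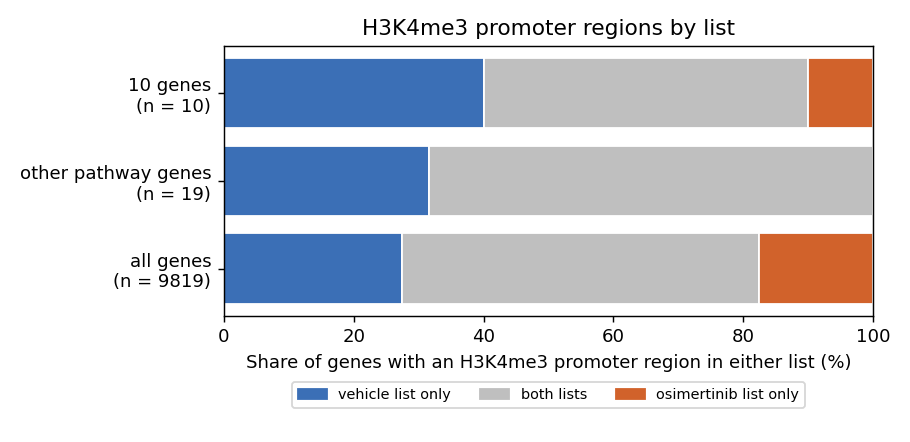
Share of genes with an H3K4me3 promoter region in the vehicle list only, in both lists or in the osimertinib list only (x axis, %), for the 10 genes, for 19 other genes of the pathway and for all 9819 genes, with 1 library per treatment. The 10 genes have 40.0% with vehicle only, beside 27.4% of all genes.

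Of the genes that supply acetyl-CoA, ACLY (ATP citrate lyase) kept an H3K4me3 region over its start in both lists but at very different places. With vehicle the region (chromosome 17, 41917660 to 41919659) had a signal of 16.3 and ranked 2439 of 11621. With osimertinib the region (41917106 to 41919105) had a signal of 2.26 and ranked 10141 of 13285. The 2 regions shared 1446 bp, and the median signals of their lists were 7.15 and 3.52, so ACLY stood above the median with vehicle and below it with osimertinib. The osimertinib list also held a weaker ACLY region (41922596 to 41924595, rank 11803), which ended 3609 bp upstream of the start. It was annotated as intron 1 of 3 of another transcript.

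ACSS2 (acetyl-CoA synthetase for acetate) had its start covered with vehicle only. That region (chromosome 20, 34875720 to 34877719) had a signal of 6.68, just under the median of its list, and ranked 6214. It covered the RefSeq start at 34876612, whose upstream stretch is printed above, and not the other start at 34874989. With osimertinib the only H3K4me3 region of ACSS2 (34889771 to 34891770, rank 12324, signal 1.62) lay in intron 2 of 4, 12051 bp from the vehicle region.

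ACACA (acetyl-CoA carboxylase) had a single H3K4me3 region, with vehicle (chromosome 17, 37357735 to 37359734). Its signal of 7.45 was close to the list median of 7.15, and its rank was 5579. The region took in all 250 printed bases and the RefSeq start at 37359096. Another RefSeq start of ACACA at 37406836 was also covered with vehicle, by a region assigned to TADA2A, and the start at 37299767 by no region in either list. With osimertinib 0 H3K4me3 regions lay within 100 kb of the ACACA start, and the nearest, assigned to AATF, was 407565 bp from the vehicle region.

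FASN (fatty acid synthase) was near the top of both lists. Its strongest region with vehicle (chromosome 17, 82097315 to 82099314) had a signal of 40.2 and ranked 560, and that with osimertinib (82095946 to 82097945) had a signal of 19.2 and ranked 438. The vehicle region covered the annotated start, whereas the osimertinib region began 387 bp inside the gene. The 2 shared 631 bp, their centres 1369 bp apart. A weaker region farther into FASN was also in both lists, ranked 5313 with vehicle (82092748 to 82094747) and 7305 with osimertinib (82093182 to 82095181), with 1566 bp shared. A further osimertinib region assigned to FASN (82072403 to 82074402, rank 8501) lay 23930 bp downstream of the start, in a stretch annotated as intergenic.

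The elongase ELOVL6, which extends palmitate to stearate, changed least in place. Its regions (chromosome 4, 110196405 to 110198404 with vehicle and 110196372 to 110198371 with osimertinib) lay 33 bp apart and shared 1967 bp. They ranked 795 and 767, with signals of 33.5 and 14.0, each far above its list median. Both covered the start in the authors' annotation, at 110198366, and neither reached the RefSeq start at 110198615, which lies farther upstream, so the ELOVL6 bases printed above fell in neither region. ELOVL1, which makes very long chains, ranked 3022 with vehicle (chromosome 1, 43367109 to 43369108, signal 13.8) and 2692 with osimertinib (43366173 to 43368172, signal 6.78). Both regions covered the start and shared 1064 bp, the osimertinib region lying 936 bp farther into the gene. The vehicle region of ELOVL1 was entered as 2 windows and the osimertinib region as 3. HACD3 (3-hydroxyacyl-CoA dehydratase) had a region over its start with osimertinib only (chromosome 15, 65529777 to 65531776), with a signal of 2.65, below the list median, and rank 8910. That region also covered the RefSeq starts at 65530463 and 65530794, and no vehicle region did. With vehicle the nearest region was 11539 bp away and assigned to DPP8.

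The desaturase genes SCD and SCD5 each had an H3K4me3 region with vehicle only. The SCD region ranked 899, with a signal of 31.6 against the list median of 7.15, and began 75 bp into the gene (100347199 to 100349198 on chromosome 10). Upstream of the start both lists held a region assigned to AL139819.1. With vehicle it spanned 3930 to 1931 bp upstream and ranked 11563, close to the bottom of the list. With osimertinib it spanned 2143 to 144 bp upstream and ranked 12873 of 13285. The SCD start in the authors' annotation was therefore flanked on both sides with vehicle and on the upstream side alone with osimertinib. The 250 bases printed above end at a RefSeq start inside the annotated gene, at 100347233. The vehicle region of SCD covered that RefSeq start, and no osimertinib region did. Of the 250 bases, 34 lay in a vehicle region and 0 in an osimertinib region. SCD5 had its start covered with vehicle (chromosome 4, 82797069 to 82799068, signal 9.33, rank 4528), and the nearest osimertinib region, assigned to SEC31A, was 83282 bp away.

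SREBF1 stood low among the 10 genes, last of the 9 listed with vehicle and ahead of ACLY alone with osimertinib. With vehicle its region, which began 15 bp inside the gene (chromosome 17, 17834988 to 17836987), had a signal of 6.20 and ranked 6625. With osimertinib the region (17835706 to 17837705) had a signal of 2.45, ranked 9531 and covered the start, lying 718 bp farther upstream with 1282 bp shared. The RefSeq start of SREBF1, at 17836986, lay in both regions. A second vehicle region (17839192 to 17841191, rank 9935) lay on the upstream flank, 1486 bp from the osimertinib region.

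**Figure D2:**
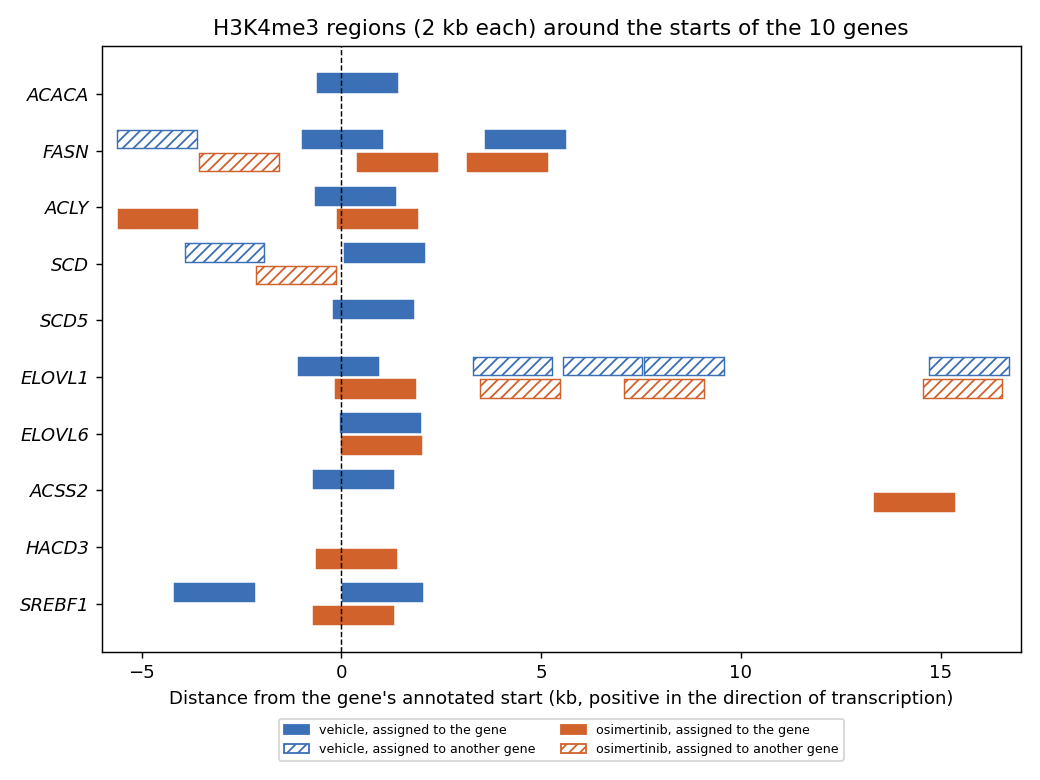
H3K4me3 regions near the annotated start of each of the 10 genes, by distance from the start in kb along the direction of transcription (x axis, cut where it ends), with vehicle in blue and osimertinib in orange and regions assigned to another gene hatched. Regions assigned to ACACA, ACSS2, SCD and SCD5 at the start are blue only and that of HACD3 is orange only, while the ELOVL6 regions nearly coincide. At SCD a hatched orange region, assigned to AL139819.1, ends 144 bp upstream of the start.

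Ordered by signal, the strongest promoter regions with vehicle ran from FASN through ELOVL6, SCD, ACLY, ELOVL1, SCD5, ACACA and ACSS2 to SREBF1, from the top 4.82% to the top 57.0% of the list. With osimertinib the order was FASN, ELOVL6, ELOVL1, HACD3, SREBF1 and ACLY, from the top 3.30% to the top 76.3%. FASN and ELOVL6 thus headed both orders, and ACLY went from the middle of the order to its end. The 4 genes found with vehicle only did not sit at the bottom of that list, at the top 7.74% for SCD, 39.0% for SCD5, 48.0% for ACACA and 53.5% for ACSS2. Over all 2695 genes with vehicle only, the median place was the top 61.3%, with quartiles at 40.3% and 80.3%, so SCD and SCD5 stood above the upper of these and ACACA and ACSS2 between the median and it. Without replicates these orders carry no error, and neighbours in them cannot be told apart.

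Places in lists of unequal length do not show a change of level. The 5 genes in both lists were also ordered among the same 5401 genes with a promoter region in both. That order evens out the length of the lists, yet it too rests on signal within each list and shows no change of level. ACLY went from place 2131 with vehicle to place 5053 with osimertinib. Of the 5401 genes, 190 (3.52%) moved at least as far as its 2922 places in either direction, 73 of them (1.35%) downward. This order was chosen after the ACLY ranks were seen, and ACLY is named as the gene of the 5 that moved farthest. FASN went from 530 to 363, ELOVL6 from 750 to 625, ELOVL1 from 2576 to 2029 and SREBF1 from 4385 to 4937. Each of these 4 moved by fewer places than the median gene, which moved by 742 in either direction, with quartiles of 304 and 1419.

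**Figure D3:**
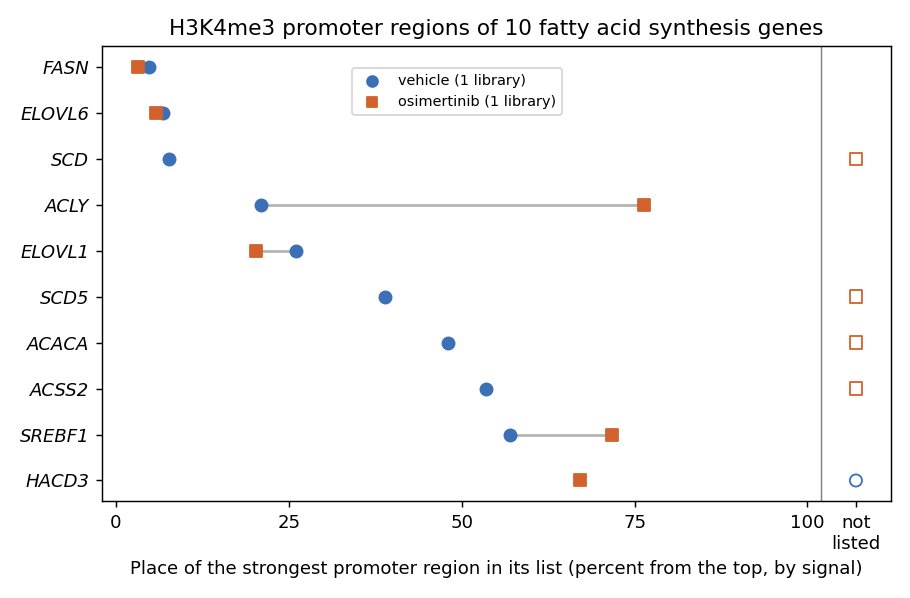
Place of the strongest H3K4me3 promoter region of each of the 10 genes in its list (x axis, percent from the top by signal), with vehicle as blue circles and osimertinib as orange squares, and open symbols for genes not listed. ACLY moves from the top 21.0% to the top 76.3%, while FASN and ELOVL6 stay within the top 6.84%.

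A region of the other treatment lay within 1 kb of 7 of the 11 H3K4me3 vehicle regions of the 10 genes, beside 67.6% of all vehicle regions and 68.5% of those at promoters, where all 11 lay. The exceptions were those of ACACA, ACSS2 and SCD5 and the upstream flank of SREBF1. The same held for 6 of the 10 osimertinib regions, beside 58.5% of all. At promoters it held for 6 of 7, beside 71.8%, with HACD3 the exception. Elsewhere it held for 0 of 3, beside 21.7% of osimertinib regions outside promoters. These 3 were the intron regions of ACSS2 and ACLY and the intergenic FASN region. The member regions thus stood near the background for both treatments. SCD was the only gene whose neighbour within 1 kb was assigned to a different gene, 218 bp away.

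H3K4me1 was listed for ELOVL1, SCD, SREBF1 and ACSS2, and at promoters for ELOVL1 with vehicle only and SREBF1 in both lists. That is 1 of 2 genes with vehicle only and 1 in both, beside 62.3% and 21.3% of the 3450 genes with an H3K4me1 promoter region. The share with osimertinib only was 0 of 2, beside 16.3%, and 2 genes are too few to set against these shares. ACACA, FASN, ACLY, SCD5, ELOVL6 and HACD3 had no H3K4me1 region by name in either list. The share of genes with an H3K4me3 promoter region that also had an H3K4me1 region was not taken. Whether H3K4me1 was scarce or usual at the genes followed here therefore cannot be told. Upstream of FASN, a vehicle H3K4me1 region assigned to CCDC57 (rank 3877) ended 3718 bp before the start, with none there for osimertinib.

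SREBF1 carried most of the H3K4me1, with 7 regions with vehicle and 5 with osimertinib. With vehicle they spread from 5205 bp upstream of the start to 24055 bp into the gene, and ranked from 596 to 3089 of 9761. With osimertinib they spread from 5007 bp upstream to 18680 bp into the gene and ranked from 1742 to 2829 of 6515. The regions over the start (17836166 to 17838165 with vehicle, rank 754, and 17836675 to 17838674 with osimertinib, rank 1742) shared 1491 bp. Those upstream of it (17840208 to 17842207, rank 833, and 17840010 to 17842009, rank 1800) shared 1802 bp. The strongest vehicle region (17820687 to 17822686, signal 8.44, rank 596) lay 14316 to 16315 bp into the gene, and an osimertinib region ranked 1923 lay 365 bp from it. The 2 vehicle regions nearest the 3′ end of the gene, ranked 1329 and 3089, and that ranked 1415 had no osimertinib region within 1 kb. For the one ranked 1329 the nearest was just beyond this limit, at 1050 bp. The vehicle regions ranked 596, 1329, 1415 and 3089 were annotated as promoters of other SREBF1 transcripts, as was the osimertinib region ranked 1923. In the vehicle library the H3K4me1 and H3K4me3 regions at the start shared 822 bp, and in the osimertinib library 1031 bp.

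**Figure D4:**
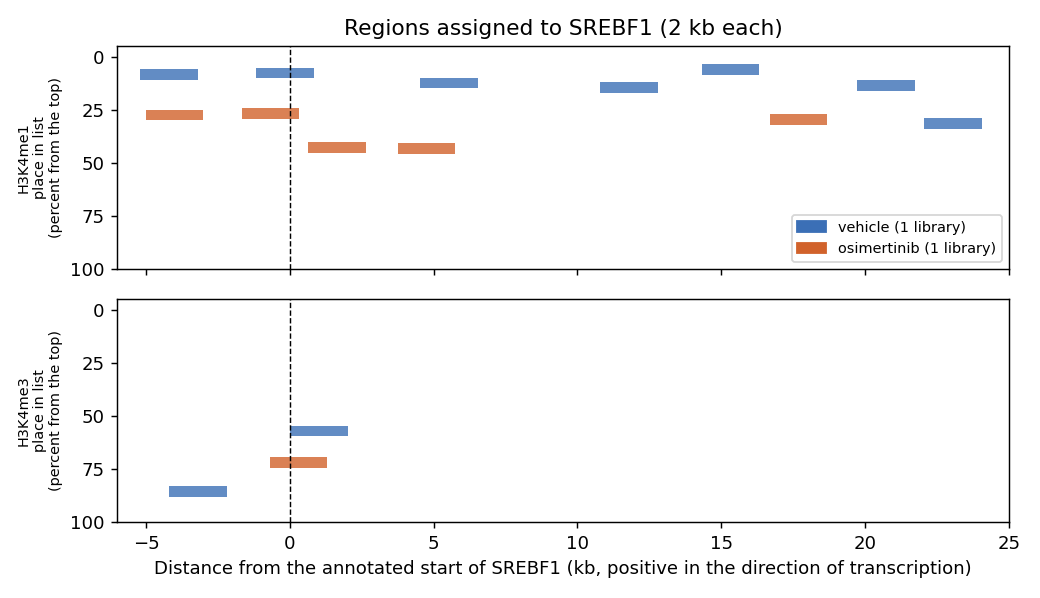
Regions assigned to SREBF1 by distance from its annotated start in kb along the direction of transcription (x axis) and place in the list (y axis, percent from the top by signal), for H3K4me1 above and H3K4me3 below, with vehicle in blue and osimertinib in orange. The 7 vehicle and 5 osimertinib H3K4me1 regions spread along the gene, while H3K4me3 stays near the start.

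At ELOVL1 the vehicle list held 3 H3K4me1 regions, ranked 4242, 7687 and 7157 on going upstream. The region ranked 4242 (43367361 to 43369360) shared 1748 bp with the H3K4me3 region of the same treatment. With osimertinib the nearest H3K4me1 region was 5412 bp away, at CDC20. SCD had 2 H3K4me1 regions with vehicle, on exon 4 of 6 (100352974 to 100354973, rank 7326) and in the 3′ UTR (100359203 to 100361202, rank 5832). Another H3K4me1 region near the 3′ end of SCD was assigned to OLMALINC in both lists, ranked 1678 with vehicle and 3179 with osimertinib with 1819 bp shared, so the absence of SCD by name from the osimertinib list did not mean that H3K4me1 was missing from the gene. ACSS2 had an H3K4me1 region with osimertinib only (34891192 to 34893191, rank 4561), which shared 579 bp with the intronic H3K4me3 region of the same treatment. With vehicle the nearest H3K4me1 region was 51826 bp away.

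A region of the other treatment lay within 1 kb of 4 of the 12 H3K4me1 vehicle regions, beside 32.6% of all, and of 5 of the 6 osimertinib regions, beside 48.3%. At promoters these were 2 of 7, beside 23.4%, and 3 of 3, beside 51.1%. All regions with such a neighbour belonged to SREBF1, for which the counts were 4 of 7 with vehicle and 5 of 5 with osimertinib, and those of ELOVL1, SCD and ACSS2 had none.

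H3K9me3 and KDM1A had 0 regions assigned to any of the 10 genes in all 4 lists. Of the 9819 genes with an H3K4me3 promoter region, 327 (3.33%) had an H3K9me3 region and 900 (9.17%) a KDM1A region in either list, so 0 of 10 is close to the background and not a result about these genes. Among all genes with an H3K9me3 promoter region, 30.9% had it with vehicle only and 39.0% with osimertinib only, with 30.1% in both. For KDM1A the shares were 33.7%, 59.3% and 6.98%. The H3K9me3 region nearest to a start was 808 kb away, from SREBF1 with osimertinib. For KDM1A the nearest lay 88.8 kb from the ACACA start with vehicle, assigned to TADA2A, and 289 kb from the SCD start with osimertinib.

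Of 34 other genes of fatty acid synthesis and its control, 19 carried H3K4me3 at a promoter with at least 1 treatment. Found with vehicle alone were 6 of these (31.6%, beside 27.4% of all genes), with osimertinib alone 0 (beside 17.5%), and in both 13 (68.4%, beside 55.0%). INSIG1, which holds SREBP proteins in the endoplasmic reticulum, was the strongest of the 6, ranked 803 (chromosome 7, 155297082 to 155299081, signal 33.4), with the nearest osimertinib region 292863 bp away. SCAP, the escort of SREBP proteins, ranked 6501. The desaturase genes FADS1 and FADS3 ranked 6914 and 8372, and an osimertinib region assigned to FADS2 lay 1221 bp from that of FADS1. HSD17B12, of the elongation cycle, ranked 8147, and MCAT, of mitochondrial fatty acid synthesis, ranked 10019. For SREBF2, the sterol counterpart of SREBF1, the region ranked 4367 with vehicle and 12728 with osimertinib, the 2 lying 873 bp apart. TECR, the last enzyme of the elongation cycle, ranked 466 and 456. HACD2, a dehydratase like HACD3, ranked 952 with vehicle (top 8.19%) and 3431 with osimertinib (top 25.8%). INSIG2, a relative of INSIG1, ranked 2727 (top 23.5%) and 3423 (top 25.8%), so its place hardly differed. MLX, a transcription factor partner, went the other way, from 3901 (top 33.6%) to 2308 (top 17.4%). Those MLX regions shared 542 bp, and the osimertinib one shared more, 1037 bp, with a weaker vehicle region of MLX, ranked 7503. Places within the lists thus differed in both directions among these genes, which shows no change of level.

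For the other marks this list gave few genes. H3K4me1 promoter regions were listed for ELOVL3, MLX and SREBF2 with vehicle only, INSIG2 with osimertinib only and TECR in both, and HACD2 had an intronic region with osimertinib. KDM1A had a region within 3 kb of a start of HSD17B12 (rank 6231 of 8882) and one in the 3′ UTR of INSIG1 (rank 8668), both with osimertinib only. H3K9me3 had 0 regions at any of the 34.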

How the data were processed

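Binding libraries of KDM1A, H3K4me1, H3K4me3 and H3K9me3 from PC9 cells given DMSO or osimertinib were analysed, 8 of the 16 samples of the series, grouped by sample title. The 6 RNA and 2 IgG samples were not analysed here. What the authors deposited is, for each library, a table of regions with a signal, a height per region that is never negative, per the file headers. Of the scaling of this signal, the peak caller, its threshold and control and the annotation tool, nothing is given in the sources used here. The submitters' processing notes name the GRCh38 (hg38) build, featureCounts, HISAT2 and Bowtie2 2.3.4, with no role for any. Signal was used only to rank and describe regions within a list. The authors' distance to a start, in bp with a sign, came from another deposited column, per the file headers. Depth is unknown, so no precision can be given for a region.

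The 10 genes and the other lists were chosen with earlier results of these data known. Regions were taken by gene name. The start of a gene was that of its longest transcript among the H3K4me3 promoter annotations. For a gene with a promoter region in 1 list only, the start thus came from that list. That its start was covered there was therefore partly built in. Distances run between region edges. The order among genes in both lists and the counts within 500 kb were added after seeing the data. With 1 library per group no test was made. The text names the 10 genes in every list, and of the 34 other pathway genes those in 1 H3K4me3 list only or in a list of another target, which includes HACD2, INSIG2, MLX, SREBF2 and TECR. Neighbouring genes are named where a result turns on them. Sequences came from RefSeq promoters (GRCh38.p14), of which the 50 bases after the start were left out, and 9 of the 10 genes matched, all but FASN. The distance search recovered all planted gaps when tested on simulated data. The promoter limit, any assigned region, equal numbers of regions, matching by gene ID, the distance and overlap, merging of neighbouring regions, ranks among promoter regions and ranks without chromosome Y were varied. The work was done in Python 3.11.15, with pandas 2.3.3 and numpy 2.4.6 for tables and matplotlib 3.10.9 for figures.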

Additional observations from a re-analysis of the deposited data

How the results depend on the processing

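The H3K4me3 counts (4 genes in the vehicle list alone, 1 in the osimertinib list alone, 5 shared) stayed within 1.5 times their value under all settings tried. These were promoters within 1 kb, any assigned region, equal numbers of strongest regions and a neighbour within 1 kb counted as in both. Matching by gene ID was another, as was, added after seeing the data, taking equal numbers of strongest promoter regions. For H3K9me3 and KDM1A these settings could only return 0, since no region of either was assigned to any of the 10 genes. Some of these settings moved a gene of the H3K4me3 list all the same: any assigned region put ACSS2 in both lists, and the neighbour rule did so for SCD. With any assigned region, H3K4me1 counted 2 genes with vehicle only and 1 with osimertinib only, by the construction of that alternative. Asking for 1000 shared bp left 3 of the 5 H3K4me1 osimertinib regions with a vehicle neighbour. Ranked among promoter regions alone, the median place of the H3K4me3 regions went from the top 26.0% to 28.3% with vehicle and from 43.7% to 50.3% with osimertinib, since weaker regions outside promoters were left out. The single genes moved down by 0.478 to 8.37 points, and without chromosome Y by at most 0.0238. No paired analysis was possible because each group holds 1 library. The lack of replicates and of read depth limits every comparison between treatments.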

Other observations

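The wider surroundings of the H3K4me3 regions differed from gene to gene. Within 500 kb of the ACACA start the vehicle list held 5 regions of other genes, of which 2, at LHX1 and AATF, had an osimertinib region within 1 kb, and those at TADA2A, DUSP14 and SYNRG did not. Around SCD5, all 10 vehicle regions of other genes had an osimertinib region within 1 kb, among them those at HNRNPD, HNRNPDL, SEC31A and COPS4, whereas the SCD5 region itself did not. Around SCD the count was 5 of 6, with OLMALINC the exception, and around ACSS2 it was 3 of 6. Around HACD3, with osimertinib, all 4 regions of other genes had a vehicle region within 1 kb. For all H3K4me3 vehicle regions the share with such a neighbour was 67.6%, and for all osimertinib regions 58.5%. These neighbours were counted after the values of the 10 genes were seen, and with 1 library per treatment they were not tested.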
